A study of Mus musculus with 17 samples.

Results

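The 10 genes described here form the core of the heat shock response: the transcription factor gene Hsf1 and the chaperone genes Hspa1a, Hspa1b, Hsph1, Dnajb1, Hsp90aa1, Hsp90ab1, Hspa8, Hspe1 and Hspd1. They were taken by symbol from 2 deposited count tables that list 56305 genes, and all 10 were found and passed the filter on low counts. Bone marrow RNA had been sequenced from leukaemic C57BL/6 mice, a model of acute myeloid leukaemia. The Mt1ko group carried Dnmt3aR878H/+ and Npm1cA/+ together with a CRISPR-Cas9 knockdown of Mt1, the gene for metallothionein 1, a small protein that binds zinc and copper. The control group carried the same Dnmt3a and Npm1 alleles without the knockdown, so every sample shared these alleles. Age and sex are not given in the labels. The labels call all 17 libraries technical replicates (9 Mt1ko, 8 control). The authors' second table sums them into 3 Mt1ko samples (libraries 4-6, 10-12 and 16-18) and 3 control samples (libraries 1-3, 7-9 and 14-15), which are the unit of comparison here. Nothing in the labels states that these came from separate animals, so p-values measure only how far these 6 samples scatter, which may be technical.

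Chaperones bind unfolded proteins and help them to fold, refold or be degraded. When unfolded protein builds up, HSF1 is released from chaperones, forms trimers and binds heat shock elements, which are repeats of the bases GAA in alternating orientation, in the promoters of its target genes. Heavy metals are classical inducers of this response as well as of metallothioneins, and leukaemic cells are known to lean on HSP90 to keep oncogenic kinases folded. Some members are made at all times (Hspa8, Hsp90ab1), whereas Hspa1a and Hspa1b are textbook stress-induced genes.

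The promoters are shown first because Hspa1a and Hspa1b are nearly identical and Hspe1 and Hspd1 share one. Windows of RefSeq promoters (GRCm38.p6) were at hand for Hspa1a, Hspa1b, Hsph1, Dnajb1, Hspe1 and Hspd1, 6 of the 10 members, and not for Hsf1, Hsp90aa1, Hsp90ab1 and Hspa8. Capitals mark pairs of heat shock units, searched on both strands as GAANNTTC and TTCNNGAA. Each is read 5′ to 3′ up to the base before the start site, on the minus strand for Hspa1b (chr17:34959239-34959488), Hspa1a (chr17:34972157-34972406) and Hsph1 (chr5:149636337-149636586), and on the plus strand for the stretch between the start sites of Hspd1 and Hspe1 (chr1:55087933-55088147).
Hspa1b: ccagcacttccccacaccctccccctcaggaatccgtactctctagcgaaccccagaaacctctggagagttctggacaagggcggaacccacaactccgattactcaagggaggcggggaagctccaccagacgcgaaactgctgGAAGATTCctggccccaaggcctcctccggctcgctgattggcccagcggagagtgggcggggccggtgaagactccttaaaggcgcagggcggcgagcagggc
Hspa1a: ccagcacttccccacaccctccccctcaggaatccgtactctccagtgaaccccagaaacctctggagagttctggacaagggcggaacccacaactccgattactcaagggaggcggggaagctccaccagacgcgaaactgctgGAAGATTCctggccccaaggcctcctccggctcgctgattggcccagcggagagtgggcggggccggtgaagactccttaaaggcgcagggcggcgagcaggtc
Hsph1: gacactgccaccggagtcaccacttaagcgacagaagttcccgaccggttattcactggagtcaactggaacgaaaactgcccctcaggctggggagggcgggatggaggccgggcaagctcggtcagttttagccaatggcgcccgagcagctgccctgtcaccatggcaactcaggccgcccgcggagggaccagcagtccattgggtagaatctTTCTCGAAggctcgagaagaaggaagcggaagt
between Hspd1 and Hspe1: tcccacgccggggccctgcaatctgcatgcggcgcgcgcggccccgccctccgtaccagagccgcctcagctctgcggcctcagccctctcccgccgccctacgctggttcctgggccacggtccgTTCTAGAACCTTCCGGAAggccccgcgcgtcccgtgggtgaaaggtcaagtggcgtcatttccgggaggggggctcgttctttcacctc

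Over these 250 bases Hspa1a and Hspa1b differed at 3 letters (98.8% identity), and both held a single pair of units that began 104 bases before the start site. Hspd1 and Hspe1 are transcribed away from each other. The RefSeq start sites used for the printed stretch have 215 bases between them; another RefSeq start of Hspd1 lies past the start of Hspe1, so that the genes overlap there. The stretch held 3 overlapping pairs, which make 4 units in a row. The longer motif of 3 units, GAANNTTCNNGAA or its reverse complement TTCNNGAANNTTC, occurred in 0.603% of 32851 promoter windows. Each window has 300 bases, of which 50 lie after the start site, so it is longer than the stretches printed. Among the members it was found in the shared Hspd1 and Hspe1 stretch and in Hsph1, where it lay from 36 to 48 bases after the first start site. GAANNTTC alone occurred in 7.86% of all windows and TTCNNGAA in 8.52%, and neither was found in the windows of Dnajb1. These matches describe letters and not binding.

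The 17 libraries held 27124722 to 38645072 counts each, and the 6 summed samples 64247249 to 106407001. Levels are given as CPM, the counts scaled to the library total after TMM adjustment. Mt1 itself was 49.3 to 95.8 in 8 of the 9 Mt1ko libraries and 333 to 449 in the 8 control libraries. The library labelled Mt1ko number 6 held 317 CPM of Mt1, near the control range, so each value of Mt1ko sample 4-6 carries that limit. Libraries 10 to 12 stood apart in RNA make-up: 21.9% to 30.2% of what they counted was mitochondrial ribosomal RNA, compared with 4.58% to 11.2% in the other 14 libraries. They also held a count in fewer genes, 11548 to 13174, compared with 14823 to 17739 in the other 14 libraries. Markers fixed for the cell types of marrow placed monocyte and macrophage transcripts first, with a summed level of 7904 to 8618 CPM in the Mt1ko samples and 6985 to 10085 CPM in the control samples. In bulk RNA, fewer cells of a type and less RNA per cell cannot be told apart.

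The chaperones ranged from some of the most abundant messages in these samples to a scarce one. Counts were divided by the length of the longest protein-coding transcript to compare genes. Hspa8, which encodes the constitutive HSP70 of the cytosol, stood first at 823 ± 184 CPM per kilobase in Mt1ko and 758 ± 122 in control (SD, n = 3 each). Hsp90ab1, the constitutive cytosolic HSP90, followed at 740 ± 153 CPM per kilobase in Mt1ko and 695 ± 122.6 in control, below Hspa8 in 6 of 6 samples although their ranges overlapped. Hsp90aa1, the stress-inducible HSP90 of the cytosol, was the third at 202 ± 17.5 CPM per kilobase in Mt1ko and 184 ± 20.8 in control. By CPM, without regard to length, Hspa8 ranked 43 and Hsp90ab1 45 among 16666 tested genes.

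The middle of the order was held by the mitochondrial chaperonin and by the helpers of HSP70. Hspe1, whose product caps the HSP60 ring, was 67.1 ± 16.9 CPM per kilobase in Mt1ko and 53.4 ± 3.51 in control. Hspd1, which encodes HSP60 itself, was 53.3 ± 11.2 CPM per kilobase in Mt1ko and 52.3 ± 5.75 in control (SD, n = 3 each), and the ranges of these partners overlapped. Hsph1, whose product exchanges the nucleotide of HSP70, was 32.9 ± 9.25 CPM per kilobase in Mt1ko and 30.0 ± 3.41 in control. Hsf1 and Dnajb1, which encodes the J-domain protein that delivers clients to HSP70, lay lower, with mean levels over the 6 samples of 14.2 and 10.6 CPM per kilobase, in that order in 4 of 6 samples. Last came the inducible HSP70 genes: Hspa1b at 4.96 ± 1.55 CPM per kilobase in Mt1ko and 4.14 ± 3.97 in control, and Hspa1a at 0.630 ± 0.262 in Mt1ko and 0.501 ± 0.477 in control. With the union of all annotated exons as the length, the order changed inside 3 groups: Hsp90ab1 stood above Hspa8, Hspd1 above Hspe1, and Dnajb1 and Hspa1b above Hsf1.

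**Figure D1:**
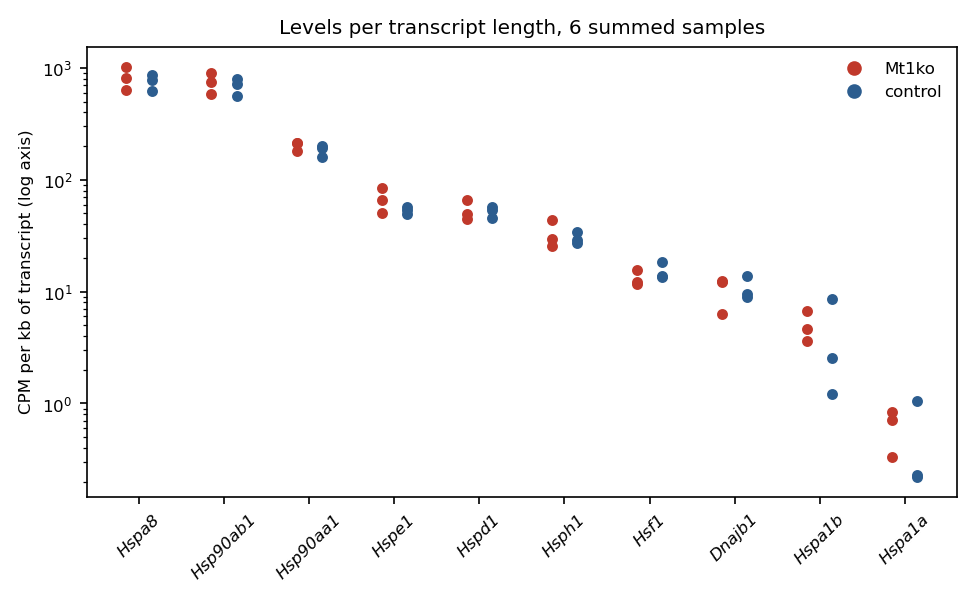
Level of each gene in CPM per kilobase of its longest protein-coding transcript (vertical log axis) in the 3 Mt1ko and 3 control summed samples (points). Hspa8 and Hsp90ab1 lie highest and Hspa1a lowest in every sample, and the points of the groups overlap in every gene.

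The comparison between the groups asked how transcription differed once Mt1 had been knocked down. None of the 10 genes was called between Mt1ko and control (edgeR quasi-likelihood test, adjusted p = 1.00 for each over 16666 genes), where 0% of all genes tested were called. At an unadjusted p under 0.05 it was 0 of the 10, against 1.03% of all genes (171). DESeq2 and limma-voom also called 0 of the 10; over all genes DESeq2 called 1, Mt1 (0.00607%), and limma-voom 0 (0%). In 0 of the 10 genes did the 3 Mt1ko samples all lie on one side of the 3 control samples, as they did in 7.10% of all genes. The log2 fold change was above 0 in 8 of the 10, beside 48.3% of all genes, with a median of 0.13 beside -0.01 for all genes. This direction moved with single samples: across 16 other settings with all 10 genes, 5 to 8 were above 0, and the median was 0.02 without Mt1ko sample 4-6 and 0.02 without control sample 7-9.

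**Figure D2:**
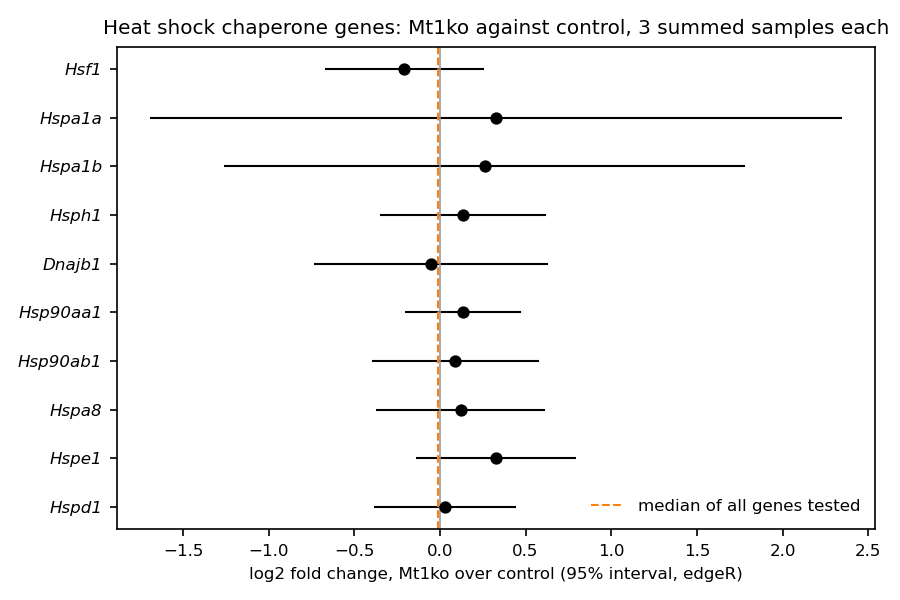
Log2 fold change of Mt1ko over control for each of the 10 genes (points) with its 95% interval (lines), from edgeR on 3 summed samples per group. Every interval crosses 0, the intervals of Hspa1a and Hspa1b are the widest, and the dashed line at -0.01 is the median of all genes tested.

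Hsf1 (ENSMUSG00000022556; GRCm38 chromosome 15, 76477422 to 76501913, plus strand) was 25.8, 33.0 and 24.5 CPM in Mt1ko samples 4-6, 10-12 and 16-18, and 29.3, 38.8 and 28.3 CPM in control samples 1-3, 7-9 and 14-15. The groups overlapped, with control 7-9 highest. On the log2 scale the fold change was -0.21 (SE 0.20; 95% interval, -0.67 to 0.25). It was -0.35 without Mt1ko 10-12 and -0.045 without control 7-9. The HSF1 protein is known to be controlled mostly after translation, by chaperone binding, trimerization and phosphorylation.

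The inducible HSP70 genes were the scarcest and the most uneven of the set. Hspa1b (ENSMUSG00000090877; chromosome 17, 34956436 to 34959238, minus strand) was 10.1, 18.6 and 12.96 CPM in the Mt1ko samples and 7.14, 24.3 and 3.38 CPM in the control samples. Control 7-9 was the highest and control 14-15 the lowest of the 6, so the control values enclosed all 3 Mt1ko values. The highest sample was 7.17 times the lowest. The log2 fold change of 0.26 (SE 0.65, 95% interval -1.26 to 1.78) therefore left differences of more than 2-fold in either direction within its interval. Without control 7-9 it was 1.41 (SE 0.47; adjusted p = 1.00, edgeR).

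Hspa1a (ENSMUSG00000091971; chromosome 17, 34969190 to 34972156, minus strand) lies 9952 bases from Hspa1b and was 0.995, 2.49 and 2.12 CPM in the Mt1ko samples, against 0.658, 3.12 and 0.683 CPM in the control samples. Control 7-9 was again highest, and the log2 fold change came to 0.33 (SE 0.87, 95% interval -1.68 to 2.34), or 1.49 without control 7-9 (SE 0.94; adjusted p = 1.00, edgeR). Single libraries of one sample disagreed widely. Library 12 held 198 counts of Hspa1a while libraries 10 and 11 of the same sample held 0, and library 7 held 287 counts while library 9 held 1. Over all 17 libraries, 4 had 0 counts.

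These paralogs cannot be fully told apart by short reads. Their open reading frames were 99.4% identical, with a longest shared run of 638 bases. The submitters' notes name RSEM 1.3.3, so the split of reads that fit both genes rests on that program. Its settings were not given in the sources used here. Hspa1b took 86.0% to 91.1% of their joint counts in the summed Mt1ko samples and 83.2% to 91.6% in the summed control samples. The split was less even in single libraries: library 12 held 198 counts of Hspa1a and 285 of Hspa1b, and library 10 held 0 and 734. Summed into 1 gene, they differed by 0.27 on the log2 scale (SE 0.64; adjusted p = 1.00, edgeR), and the summed level was 11.1, 21.1 and 15.1 CPM in the Mt1ko samples and 7.80, 27.4 and 4.07 CPM in the control samples. Hspa1a also overlaps the gene Gm20481 on the other strand, and the strand setting of the counting is not given.

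Hspa8 and Hsp90ab1, the constitutive pair, moved together from sample to sample. Hspa8 (ENSMUSG00000015656; chromosome 9, 40800984 to 40810087, plus strand) was 2416, 1535 and 1962 CPM in the Mt1ko samples and 2072, 1498 and 1871 CPM in the control samples. Hsp90ab1 (ENSMUSG00000023944; chromosome 17, 45567775 to 45573271, minus strand) was 2246, 1476 and 1869 CPM in the Mt1ko samples and 2021, 1414 and 1817 CPM in the control samples. Mt1ko 10-12 and control 7-9 were the lowest samples for both genes and Mt1ko 4-6 the highest. The ratio of their raw counts, which no scaling touches, stayed between 1.04 and 1.08 in the Mt1ko samples and between 1.03 and 1.06 in the control samples. In single libraries it ran from 0.988 to 1.16 in Mt1ko and from 1.00 to 1.08 in control. The longest run of bases shared by Hsp90ab1 and Hsp90aa1 was 33, and by Hspa1b and Hspa8 it was 23. The log2 fold changes were 0.12 for Hspa8 (SE 0.21, 95% interval -0.37 to 0.60) and 0.09 for Hsp90ab1 (SE 0.21, 95% interval -0.39 to 0.57). Hspa8 holds 3 small nucleolar RNA genes on its own strand, among them Snord14c.

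Hsp90aa1 was the steadiest member. This inducible HSP90 gene (ENSMUSG00000021270; chromosome 12, 110690605 to 110702728, minus strand) was 700.3, 693 and 597 CPM in the Mt1ko samples and 655, 527 and 631 CPM in the control samples. Its highest sample was 1.33 times its lowest, the smallest such ratio of the 10, and control 7-9 was the lowest. The log2 fold change was 0.13 (SE 0.14), and its 95% interval of -0.20 to 0.47 was the narrowest among the members. It was 0.048 without control 7-9 and 0.20 without Mt1ko 16-18.

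The cofactors of HSP70 differed most in Mt1ko 10-12, and in opposite directions. Dnajb1 (ENSMUSG00000005483; chromosome 8, 83608193 to 83612653, plus strand) was 37.3, 19.0 and 36.9 CPM in the Mt1ko samples and 40.9, 26.9 and 28.8 CPM in the control samples, so Mt1ko 10-12 was the lowest of the 6. Hsph1 (ENSMUSG00000029657; chromosome 5, 149614287 to 149636376, minus strand) was 112, 165 and 98.0 CPM in the Mt1ko samples and 104, 129 and 109 CPM in the control samples, so the same sample was the highest. Within it, libraries 10, 11 and 12 held 146, 125 and 237 CPM of Hsph1. The log2 fold changes were -0.05 for Dnajb1 (SE 0.29, 95% interval -0.73 to 0.63) and 0.13 for Hsph1 (SE 0.21, 95% interval -0.35 to 0.61). Without Mt1ko 10-12 they were 0.21 and -0.11, so both signs turned when that sample was left out.

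The mitochondrial chaperonin genes, which share the promoter printed above, kept a near constant ratio in the summed samples except Mt1ko 10-12, but not in single libraries. There Hspe1 per kilobase ran from 73.8% to 131% of Hspd1 in control and from 86.9% to 356% in Mt1ko. The Pearson correlation of their TMM-scaled log2 CPM over the 17 libraries was 0.08. Hspe1 (ENSMUSG00000073676; chromosome 1, 55088132 to 55091307, plus strand) was 51.3, 65.3 and 39.1 CPM in the Mt1ko samples and 41.8, 38.4 and 43.8 CPM in the control samples. Hspd1 (ENSMUSG00000025980; chromosome 1, 55077835 to 55088243, minus strand) was 159, 108 and 120.4 CPM in the Mt1ko samples and 138, 111 and 131 CPM in the control samples. Mt1ko 10-12 was thus the highest of the 6 for Hspe1 and the lowest for Hspd1. For Hspe1 the log2 fold change came to 0.33 (SE 0.20, 95% interval -0.13 to 0.79), the largest of the 10. It was 0.13 without Mt1ko 10-12 and 0.50 without Mt1ko 16-18 (SE 0.18; adjusted p = 1.00, edgeR). That of Hspd1 was 0.03 (SE 0.18, 95% interval -0.38 to 0.44). The annotated genes overlap at their starts on opposite strands, and counts of the named Hspd1 and Hspe1 pseudogenes were at most 15 in any sample.

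**Figure D3:**
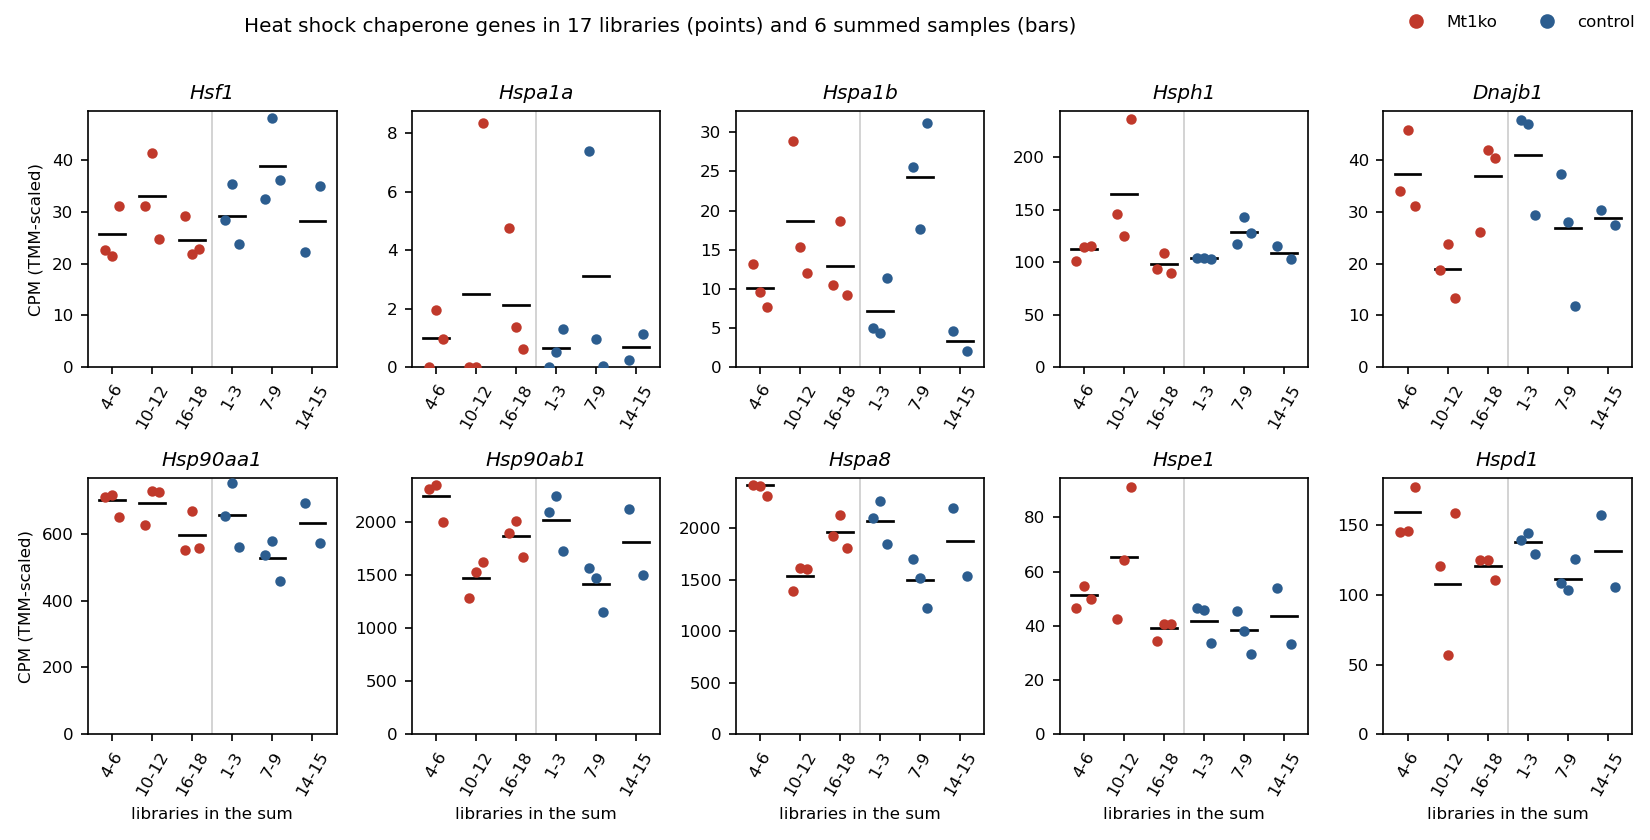
CPM of each gene (vertical axis, linear from 0) in the 17 libraries (points) and in the 6 summed samples (horizontal bars), Mt1ko on the left and control on the right. Hspa1a and Hspa1b differ most between libraries, and Hspa8 and Hsp90ab1 share their high and low samples.

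Ratios of 2 genes within a sample were then compared, since they do not depend on scaling. The inducible HSP70 genes together reached 0.391%, 1.17% and 0.651% of Hspa8 per kilobase in Mt1ko samples 4-6, 10-12 and 16-18, and 0.320%, 1.55% and 0.184% in control samples 1-3, 7-9 and 14-15. The log2 ratio differed by 0.57 (Mt1ko less control; exact two-sided permutation p = 0.7). All 3 values of Mt1ko lay inside the control range.

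Hsp90aa1 stood at 23.9%, 36.0% and 24.5% of Hsp90ab1 in the Mt1ko samples and at 24.9%, 28.6% and 26.7% in the control samples, a difference of 0.05 in log2 ratio (exact permutation p = 1.00). Mt1ko 10-12 was the highest, with its 3 libraries at 34.4% to 37.4%, above the 14 other libraries. Hspe1 stood at 101%, 190.0% and 102% of Hspd1 in the Mt1ko samples and at 95.1%, 108% and 104% in the control samples, a difference of 0.29 (exact permutation p = 0.7). Mt1ko 10-12 was again alone above the rest, and within it libraries 10, 11 and 12 were at 110.0%, 356% and 180.2%. With 3 against 3 samples the smallest p is 0.1, and adjusted over the 3 ratios each p was 1.00. Beside these values, Mt1ko 10-12 had the high share of mitochondrial ribosomal RNA given above and the highest sum of the listed mast cell, basophil and eosinophil markers. Their summed level was 412, 5285 and 166 CPM in the Mt1ko samples and 238, 829.7 and 675 CPM in the control samples. Of the 11 listed markers 7 were tested, and all 7 had a log2 fold change above 0. Prss34, Prg2 and Epx were at 0 in every sample, and Mcpt8 was at 0 in Mt1ko 10-12. The part of this RNA and of these markers in the ratios was not tested.

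**Figure D4:**
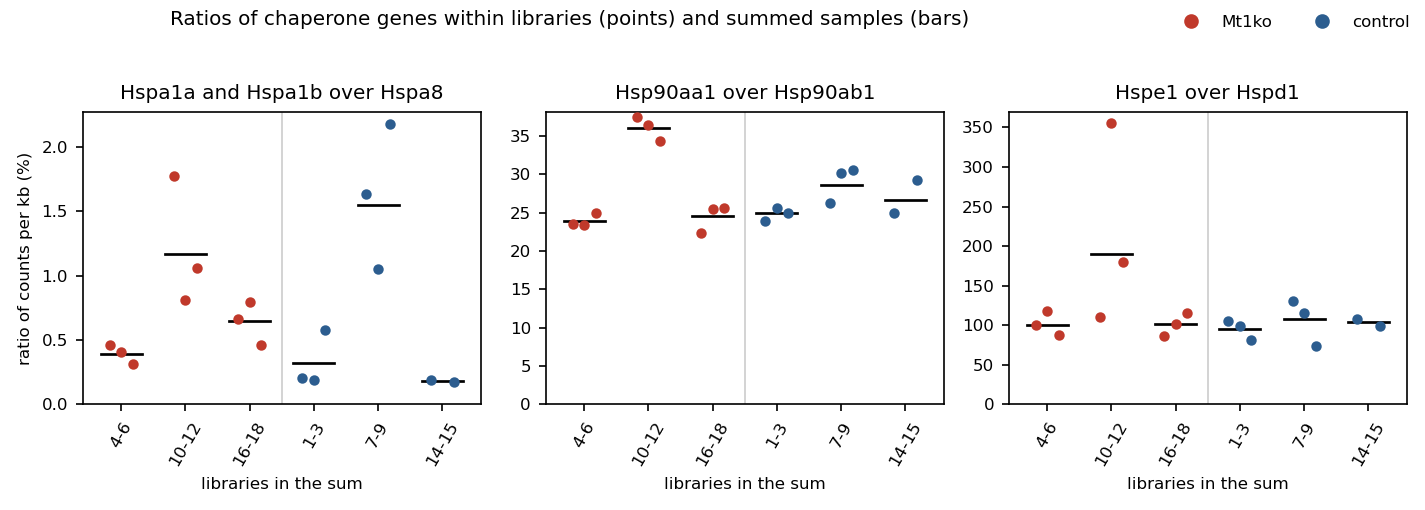
Ratio of counts per kilobase, in percent (vertical axes, linear from 0), in the 17 libraries (points) and the 6 summed samples (horizontal bars), Mt1ko on the left and control on the right. Mt1ko 10-12 is highest for Hsp90aa1 over Hsp90ab1 (36.0%) and Hspe1 over Hspd1 (190.0%), and control 7-9 for the inducible HSP70 genes over Hspa8 (1.55%).

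Libraries of one summed sample varied more than the samples of a group in 6 of the 10 genes (Hsf1, Hspa1a, Dnajb1, Hsp90aa1, Hspe1 and Hspd1). Each sample is a sum of libraries, which averages out part of their scatter, so these SDs are of unlike units. On the log2(CPM + 1) scale, the SD of libraries within a sample was 0.18 for Hspa8, 0.20 for Hsp90ab1 and 0.16 for Hsp90aa1, and the SD of samples within a group was 0.29 for Hspa8, 0.28 for Hsp90ab1 and 0.15 for Hsp90aa1. For Hspa1a the libraries varied more (SD 1.20 within a sample, 0.61 between samples of a group), and for Hspa1b less (SD 0.53 within a sample, 0.95 between samples of a group). Libraries fell under 3 second index sequences. Among those with the first (3 Mt1ko and 5 control libraries), 5 of the 10 genes were higher in Mt1ko, with a median difference of 0.08 in log2(CPM + 1). Among those with the second (4 Mt1ko and 3 control libraries), 8 of the 10 were, with a median of 0.12. The third was carried by 2 Mt1ko libraries and by no control library. All 3 Mt1ko libraries with the first index belong to sample 4-6, and 3 of the 4 with the second are libraries 10 to 12, so index and sample cannot be told apart here.

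Over the 17 libraries the profiles of Hspa8 and Hsp90ab1 had a Pearson correlation of 0.98 on TMM-scaled log2 CPM, the highest of the 45 pairs of members. The next were Hsp90aa1 with Hspe1 (0.76) and Dnajb1 with Hspa8 (0.76), and the lowest was Hsph1 with Dnajb1 (-0.67). The labels call the libraries technical replicates, and all share the scaling, so these values describe the 17 libraries and carry no p. Within control 14-15, library 14 held 7 counts of the mast cell marker Cpa3 and library 15 held 12109. Whether the libraries of one sample share RNA was not tested. The other profiles were searched among the 4950 genes that averaged 5 or more in log2 CPM. The profile most like that of Hspd1 was that of Eif4g2 (0.92), followed by Ddx39 (0.91), Lsm12 (0.89), Ccnc (0.89) and Psmd8 (0.89). For Hsp90aa1 they were Myl12a (0.83), Mgat2, Dcaf5, Rpl35a and Sash3 (0.82 each). For Hspa1a they were Pnpla2 (0.81), Sbf1 (0.75), Rgl2 (0.75), Tial1 (0.73) and Plod3 (0.72). Hspa1a held at most 287 counts in a library and 0 in 4 of the 17, so its profile rests on few counts.

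The other genes of the network were taken from lists of 87 heat shock and chaperone genes, of which 78 were tested. None was called in either direction (edgeR adjusted p = 1.00 for each), where 0% of all genes tested were called. At an unadjusted p under 0.05 (edgeR) it was 1 of 78, against 1.03% of all genes. The log2 fold change was above 0 in 51 of 78 (65.4%), beside 48.3% of all genes, with a median of 0.07. The Mt1ko samples lay above all control samples in 6 of the 78 and below in 1, beside 2.74% and 4.36% of all genes. The 6 were Dnajb2, Bag4, Cdc37, Ppp5c, Sugt1 and Pfdn2, and the 1 was the scarce Hsf5; being chosen for their values, they are named as a description. Pfdn2, a prefoldin subunit that passes actin and tubulin to the chaperonin TRiC, had the smallest p, at 20.2 ± 2.49 CPM in Mt1ko and 14.7 ± 0.458 CPM in control (SD, n = 3 each; log2 fold change 0.46, edgeR unadjusted p = 0.0426).

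The small heat shock proteins were almost silent in both groups. Of 8 listed, Hspb1, Hspb2, Hspb3, Hspb8 and Cryaa had 0 counts in all 6 samples, and Hspb6 was the 1 tested, at 4.55 CPM in Mt1ko and 3.43 CPM in control. Relatives of HSF1 were scarce too: Hsf2 averaged 10.9 CPM in Mt1ko and 12.5 CPM in control, and Hsf5 0.172 CPM in Mt1ko and 0.649 CPM in control. Hsbp1, which encodes a protein that binds HSF1, averaged 70.1 CPM in Mt1ko and 67.1 CPM in control. In this list 1 of 4 tested genes, Hsbp1, had a log2 fold change above 0 (0.06). The median of -1.05 lay between Hsf2 at -0.21 (SE 0.50) and Hsf5 at -1.90 (SE 1.64). It therefore leans on scarce genes: Hsf4, at -2.04 (SE 2.37), held at most 78 counts in a sample, and Hsf5 at most 65.

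Among the HSP70 relatives 6 of 8 were above 0 (median 0.09). Hspa9, the HSP70 of mitochondria, was 375 CPM in Mt1ko and 385 CPM in control, with a log2 fold change of -0.04 (SE 0.21), and Hspa4, a relative of HSP110, was 306 CPM in Mt1ko and 294 CPM in control. Of the J-domain genes 8 of 13 were above 0 (median 0.05), with Dnaja1 at 149 CPM in Mt1ko and 155 CPM in control, and Dnaja2 at 146 CPM in Mt1ko and 135 CPM in control. Of the nucleotide exchange factors 5 of 7 were above 0 (median 0.08). Among them Bag3, a partner of HSP70 in autophagy and itself a known HSF1 target, was 134, 76.7 and 125 CPM in the Mt1ko samples and 134, 82.9 and 128 CPM in the control samples. Its low samples were the same as those of Hspa8 and Hsp90ab1.

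HSP90 co-chaperones were above 0 in 11 of 17 (median 0.08). Cdc37, which brings kinases to HSP90, was 205 ± 11.4 CPM in Mt1ko and 189 ± 3.13 CPM in control, a log2 fold change of 0.11 (SE 0.11). Ptges3, the co-chaperone p23, was 182 CPM in Mt1ko and 178 CPM in control. Of TRiC and prefoldin genes, which fold actin and tubulin, 12 of 14 were above 0 (median 0.12), with Tcp1 at 299 CPM in Mt1ko and 274 CPM in control, Cct5 at 203 CPM in Mt1ko and 201 CPM in control, and Cct2 at 194 CPM in Mt1ko and 180.1 CPM in control. Mitochondrial chaperones and proteases were above 0 in 3 of 6 (median -0.01), and Lonp1, a matrix protease, was 65.4 CPM in Mt1ko and 74.1 CPM in control. Of 8 other heat-inducible genes 4 were above 0 (median 0.01). Hmox1, the haem oxygenase induced by haem, metals and oxidants, was abundant at 2156, 4269 and 2593 CPM in the Mt1ko samples and 2443, 4043 and 2823 CPM in the control samples, so Mt1ko 10-12 and control 7-9 were its high samples.

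**Figure D5:**
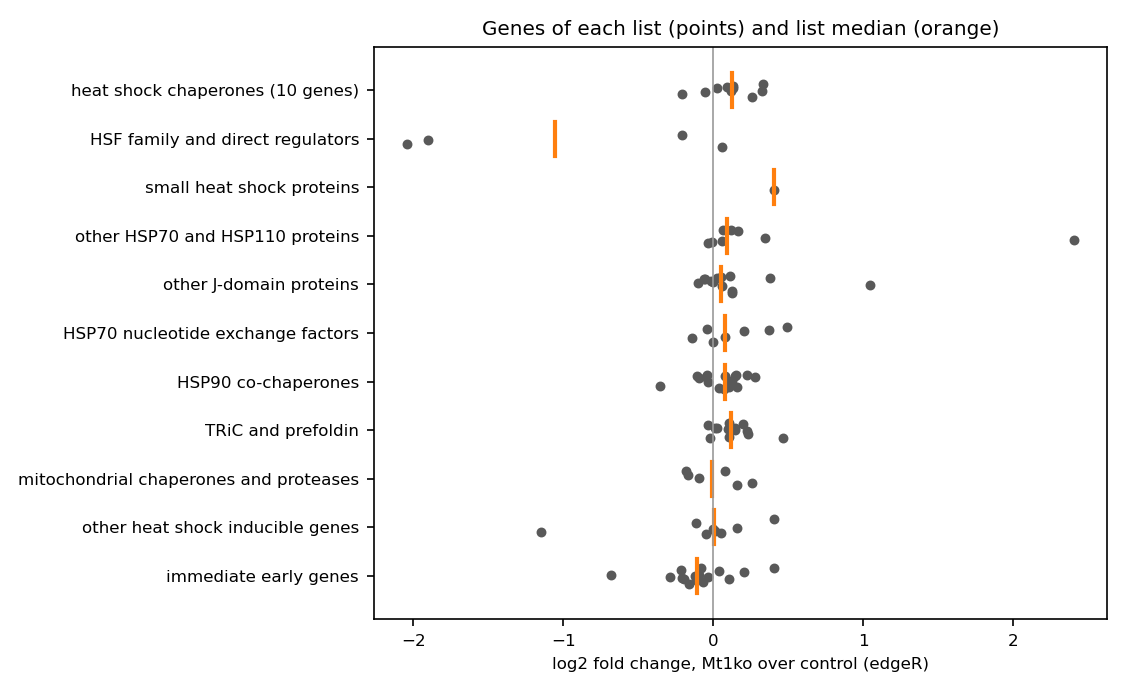
Log2 fold change of Mt1ko over control (horizontal axis) of every tested gene in each list (points) and the list median (orange bars), from edgeR on 3 summed samples per group. No gene was called, and the median of the 10 heat shock chaperones is 0.13.

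Immediate early genes, which are switched on within minutes by handling and by growth signals, were summed as a marker of that state. Their level was 1761, 1148 and 1696 CPM in the Mt1ko samples and 2034, 1267 and 1581 CPM in the control samples, and 4 of 16 had a log2 fold change above 0 (median -0.11; none called). Mt1ko 10-12 and control 7-9 were the lowest for this sum, as they were for Hspa8, Hsp90ab1 and Bag3, and the highest for Hspa1a, Hspa1b, Hsph1 and Hmox1. The contrast of these samples with the other 4 runs across the Mt1ko and control labels and is not a comparison of the study.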

How the data were processed

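Total RNA of bone marrow was made into libraries with the Pico version of a stranded total RNA kit, per the labels' protocols. The submitters' processing notes name Trimmomatic 0.35, RSEM 1.3.3 and GRCm38 (mm10); an aligner and a strand setting were not given in the sources used here. What was deposited are raw counts, as whole numbers, of 17 libraries and of 6 sums, and each sum equalled its libraries in every gene.

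Groups came from the titles. For the 6 sums, filterByExpr left 16666 genes, which edgeR 4.0.16 (R 4.3.3) tested with TMM scaling and the quasi-likelihood F test, group alone in the model, at a Benjamini-Hochberg adjusted p under 0.05. SE were derived from the F statistic. DESeq2 1.42.0 and limma 3.58.1 (voom) were alternatives. Coordinates and transcript lengths are of GENCODE vM21 (GRCm38). Where a symbol had several identifiers, the one with the most counts was used.

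The members and lists were chosen with earlier results of these data known. All 10 members are named, and up to 3 genes per list by abundance. The genes named for non-overlapping groups, Pfdn2 for its p, and the samples of Hmox1 and Bag3 were chosen after their values were seen. Intervals cover the spread between these samples, and the number of counts limits Hspa1a most.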

Additional observations from a re-analysis of the deposited data

Results flagged for a closer look

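Of 26 groups of library values examined (10 genes and 3 ratios in the Mt1ko and the control libraries), a single library lay far from the others in 4, which happens in about 1 in 20 groups by chance. Hspa1a was 7.41 CPM in control library 7, far above the other control libraries. Hsf1 was 41.4 CPM in Mt1ko library 11, and the next Mt1ko library held 31.2 CPM. Hsph1 was 236.6 CPM in Mt1ko library 12, and 145.7 CPM in the next. Hspe1 over Hspd1 was 356% in Mt1ko library 11, from 1941 counts of Hspe1 and 1707 of Hspd1, and 180.2% in the next. Of these, 3 fell in libraries 10 to 12, which have the high mitochondrial ribosomal RNA; its part was not tested.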

How the results depend on the processing

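No paired analysis was possible because the titles give each library its own number and the groups share none. No member was called under any setting run (DESeq2, limma-voom, 3 scalings, 3 filters, 17 libraries with and without the second index, each sample left out, library 6 left out with and without sample 10-12, mitochondrial genes left out, and Hspa1a and Hspa1b summed, the last chosen after the data had been seen). The number of genes called was 0 on the 6 samples, at thresholds of 0.01 and 0.1 too, and 0 with each sample left out. It was 1, Mt1, with DESeq2, with library 6 left out, and with library 6 and sample 10-12 left out. It was also 1, Mt1, with 17 libraries, a fit that counts libraries labelled technical replicates as independent. Of 178 values of single members under other settings, 14 changed sign. With a sample left out, log2 fold changes ranged from -0.029 to 1.49 for Hspa1a, -0.18 to 1.41 for Hspa1b, -0.11 to 0.28 for Hsph1, -0.21 to 0.21 for Dnajb1, -0.068 to 0.23 for Hsp90ab1, -0.055 to 0.27 for Hspa8, -0.15 to 0.15 for Hspd1, -0.35 to -0.045 for Hsf1, 0.048 to 0.20 for Hsp90aa1 and 0.13 to 0.50 for Hspe1. The high ends for Hspa1a and Hspa1b came without control 7-9. Without library 6 and sample 10-12 it was -0.45 for Hsf1, -0.13 for Hsph1 and 0.27 for Dnajb1, and without library 6 it was -0.017 for Hspd1. The median over members ranged from 0.017 to 0.16 with a sample left out. The difference in log2 ratio then ranged from -0.078 to 1.46 for the inducible HSP70 genes over Hspa8, -0.14 to 0.16 for Hsp90aa1 over Hsp90ab1 and -0.018 to 0.44 for Hspe1 over Hspd1, and was -0.15 for Hsp90aa1 over Hsp90ab1 without library 6 and sample 10-12. The cause of these changes was not tested. Hspa1a could not be tested at 1 CPM in every sample of a group.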
